A study of Homo sapiens with 3 samples.

Results

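The genes described here are the fibroblast growth factors (FGF), the vascular endothelial growth factor (VEGF) family and the platelet-derived growth factors (PDGF), with the receptors and co-receptors that bind them. They were chosen by their gene symbols, as the FGF ligands, FGFR1 to FGFR4, VEGFA, VEGFB, VEGFC, PGF, FLT1, FLT4, NRP1, NRP2, the PDGF ligands and the PDGF receptors, and 40 of the 32738 genes of the table matched. Of the 40, 33 had at least 50 unique molecular identifiers (UMIs, each a tag for one captured RNA molecule) over all kept cells. FGF3, FGF4, FGF6, FGF16, FGF17, FGF21 and FGF22 had fewer, and no level is given for them.

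The cells came from chambered cardiac organoids (CCOs) grown from the human embryonic stem cell line H7, an established line. Cells were differentiated with CHIR99021, an inhibitor of GSK3, and then with IWP-2, an inhibitor of Wnt secretion, and were aggregated in Matrigel on day 7. The D8 and D14 organoids were in CGM, a medium to which thrombin, cardiotrophin-1, EGF, FGF-2, Wnt-3A and EDN1 had been added, and the D21 organoids had been moved after D14 into RPMI with B27 in a spinner flask, with no added FGF-2. Each day has 1 library of dissociated organoids of 1 line, so day, library and medium cannot be told apart, and no test between days was possible.

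FGF, VEGF and PDGF ligands are mostly secreted proteins that bind receptor tyrosine kinases on the same or on neighbouring cells. In the heart, FGF10 and FGF8 are known from the progenitors of the second heart field, VEGF-A acts on endothelial cells through KDR and FLT1, and PDGF receptors mark the mesenchymal cells, with PDGFRA also present in early cardiac mesoderm. FGF11, FGF12, FGF13 and FGF14 stand apart in the family, since they are not secreted and bind voltage-gated sodium channels inside the cell.

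The files held 3563, 4615 and 9149 cell barcodes at D8, D14 and D21, of which 2657, 3585 and 1946 passed the filter on genes per cell and mitochondrial RNA. The kept cells had median depths of 15316, 12282 and 14106 UMIs. The filter kept 21.3% of the D21 barcodes against 74.6% at D8 and 77.7% at D14, since 57.1% of the D21 barcodes had too few genes and 47.8% were at or over the mitochondrial limit, with overlap. The D8 and D14 libraries shared 25 barcodes, D8 and D21 shared 52, and D14 and D21 shared 59. Levels are counts per 1000000 (CPM), the UMIs of a gene over all UMIs of the summed cells of a group, and intervals are exact Poisson 95% intervals that cover counting error only. The UMIs are counted at the 3′ end of transcripts and are not scaled to length, so that levels are compared between groups for a gene and not between genes.

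Cells were grouped by clustering on genes other than these, and a cluster was named from fixed markers. Cardiomyocyte-like (CM-like) cells were cluster 7 at D8 (483 cells), cluster 4 with 6 cells of cluster 7 at D14 (671 cells in all) and clusters 6 and 18 at D21 (540 cells). The 10 CM markers summed to 12856, 38074 and 68617 CPM in these cells, against 3575 CPM in D21 fibroblast-like cells. Cluster 18 of D21 met 8 of the 10 markers, but 0 of them were among its 10 leading genes. Its median depth was 8172 UMIs, against 14106 for all kept D21 cells. The size of the D14 CM-like group depended on the clustering. Its main cluster held 665 cells as used here and 675 at a resolution of 1.2. It held 1333 cells at a resolution of 0.4 and 1194 with 3000 variable genes. Fibroblast-like cells numbered 524 at D14 and 825 at D21, and none of the D8 clusters met that name. Endothelial-like cells were few, with 46, 53 and 37 cells. Endoderm-like cells numbered 257, 212 and 307. Nearly all were of cluster 9, named by foregut epithelial markers, at D8 and D14 and of cluster 11, named by hepatic markers, at D21, so their values at D21 and D14 belong to differently marked cells. Ectoderm-like cells were named at D8 (204) and D14 (78), and a dividing group was named at each day from cell cycle genes alone, so it can hold several cell types.

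The promoters of both PDGF receptors are shown here because PDGFRA was lower and PDGFRB higher at D21 than at D8, a pair chosen after their values were seen. Each is the 250 bases before a RefSeq start in GRCh38.p14. Capitals mark the GC box GGGCGG and the CCAAT box, searched on both strands (also as CCGCCC and ATTGG). The PDGFRA window lies on the plus strand at chr4:54233710-54233959, upstream of the second of its starts in the reference, and the PDGFRB window on the minus strand at chr5:150155846-150156095.
PDGFRA: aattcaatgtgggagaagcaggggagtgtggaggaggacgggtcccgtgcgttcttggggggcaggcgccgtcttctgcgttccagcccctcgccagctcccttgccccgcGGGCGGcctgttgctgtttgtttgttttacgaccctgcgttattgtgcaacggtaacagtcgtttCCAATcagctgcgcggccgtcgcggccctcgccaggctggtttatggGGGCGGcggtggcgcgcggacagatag
PDGFRB: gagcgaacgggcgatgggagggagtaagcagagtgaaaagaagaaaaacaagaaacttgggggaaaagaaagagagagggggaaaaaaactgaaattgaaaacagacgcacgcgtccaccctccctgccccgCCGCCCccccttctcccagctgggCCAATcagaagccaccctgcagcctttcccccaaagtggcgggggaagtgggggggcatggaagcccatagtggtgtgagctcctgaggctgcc
The PDGFRA window held 2 GC boxes and 1 CCAAT box, and the PDGFRB window 1 of each. The window before the other PDGFRA start, at chr4:54229043-54229292, held 0 GC boxes and 0 CCAAT boxes. Of all 35116 windows of this length, 42.6% held a GC box and 32% a CCAAT box, and of the 48 windows that matched 27 of the 40 genes, 30 held a GC box and 13 a CCAAT box. The letters TATAAA were found in 4 of these 48 windows and in 10.7% of all. A match is a description of the letters, and 3′ counts do not tell which start was used.

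Over all kept cells, the 40 genes together made up 787, 810.0 and 566 CPM (D8, D14 and D21). A gene was counted as higher or lower when its level changed at least 2-fold with 1 CPM added to both levels, among genes with at least 20 UMIs in both groups together and 2 CPM in one of them. From D8 to D14, 8 of 26 genes were higher (PDGFC, FGF18, NRP1, VEGFB, PDGFD, FGF23, FGF7 and PDGFB) and 3 were lower (PDGFRA, FGFR4 and FGF8), against 9.03% and 1.86% of all genes. From D14 to D21, 6 of 27 were higher (FGF12, PDGFRB, FGFR4, PDGFD, FGF9 and FGF7) and 8 were lower (VEGFC, FGF10, VEGFA, FGF8, VEGFB, FGF23, PGF and FGF11), against 6.39% and 11.6% of all genes. The median log2 difference of the genes tested was 0.48 from D8 to D14, beside 0.11 for all genes, and -0.66 from D14 to D21, beside -0.22. In such sums over a library, fewer cells of a type and less RNA per cell cannot be told apart.

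**Figure D1:**
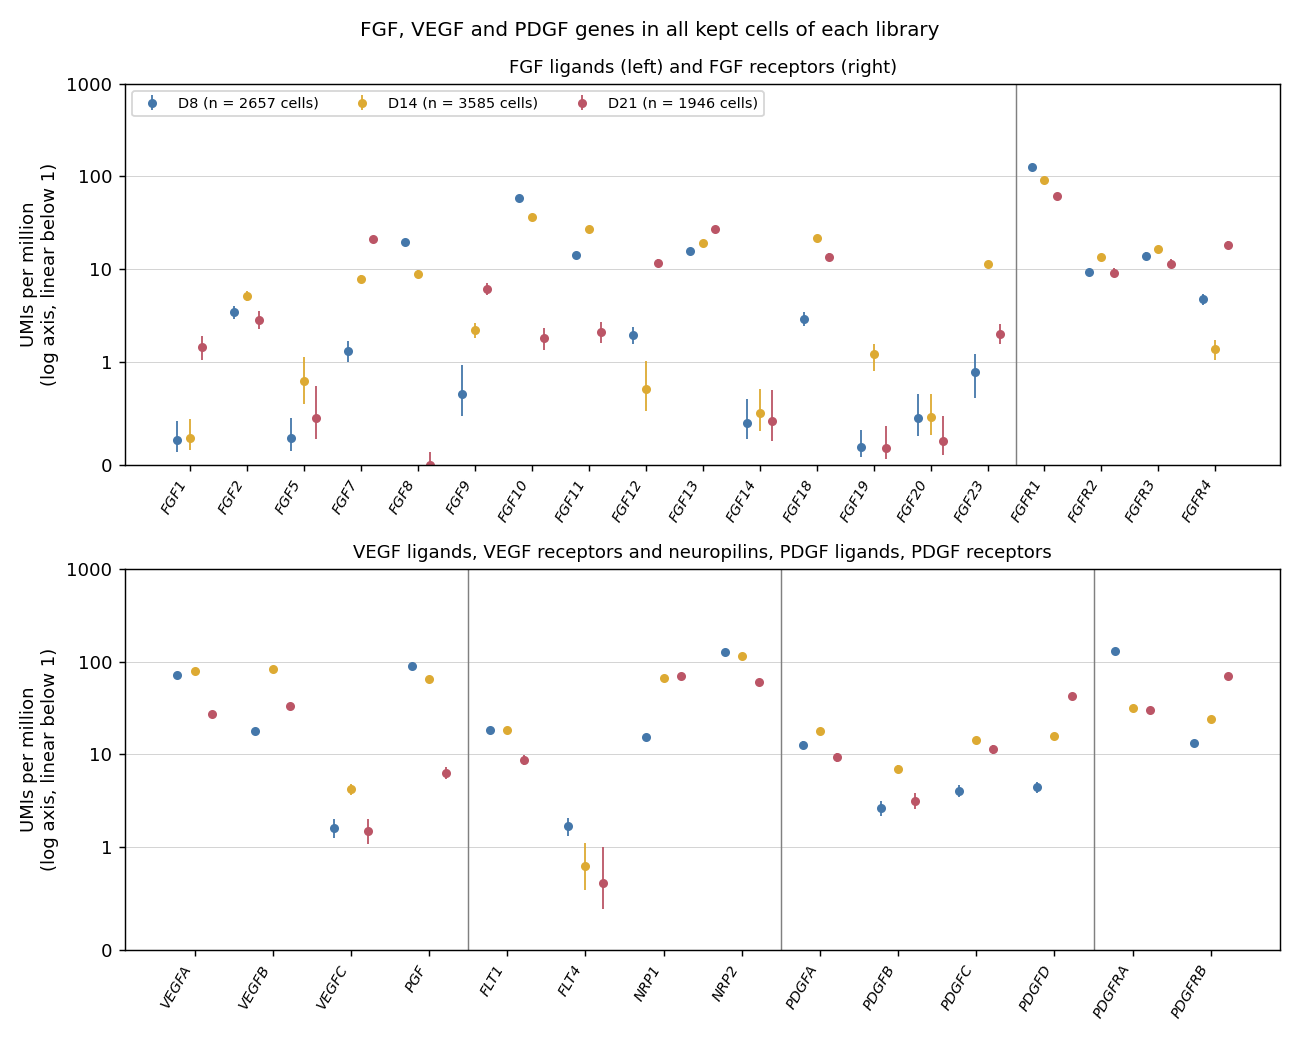
Level of each gene with at least 50 UMIs in all kept cells of the D8, D14 and D21 libraries, in CPM on a log axis that is linear below 1, grouped by role; points are sums over the cells of 1 library and bars are exact Poisson 95% intervals. PDGFRA went from 130.2 to 30.1 CPM between D8 and D21, whereas PDGFRB went from 13.1 to 71.0 CPM and FGF8 had 0 UMIs at D21.

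The same comparison within CM-like cells sets cells of 1 named group side by side. From D8 to D14, 10 of 24 genes were higher in CM-like cells and 1 was lower, against 10.9% and 3.57% of all genes. From D14 to D21, 6 of 27 were higher and 12 lower, against 4.94% and 15.9% of all genes. Those higher at D21 were all FGF ligands or FGF homologous factors (FGF1, FGF7, FGF9, FGF12 and FGF13) apart from PDGFD. Those lower were FGFR2, FGFR3, PDGFRA, FLT1, FGF8, FGF10, FGF11, FGF23, VEGFA, VEGFB, PGF and PDGFB. The median log2 difference was 0.87 from D8 to D14 (all genes 0.049) and -0.71 from D14 to D21 (all genes -0.18). Endoderm markers, taken as a possible measure of RNA from other cells, summed to 1611, 857 and 3531 CPM in CM-like cells of the 3 days. At D21, 12 of 16 were over 10 CPM and 1 was at 0. Endoderm-like cells had 4348, 4672 and 124725 CPM on these days, so both groups lay closer together at D8 and D14 than at D21. The part of such RNA in the CM-like levels was not tested.

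Among the secreted FGF ligands, FGF10 and FGF8 were high early and low or not detected at D21. FGF10, a ligand of FGFR2 and a marker of the second heart field, had 58.5 CPM (56.3 to 60.7) at D8, 36.1 CPM (34.5 to 37.8) at D14 and 1.78 CPM (1.34 to 2.32) at D21 over all kept cells. CM-like cells had 116, 69.0 and 3.70 CPM at D8, D14 and D21, which is 18.6-fold (12.7 to 28.5) lower at D21 than at D14, and 33.2% of the D8 FGF10 UMIs were in CM-like cells. At D14, unnamed cluster 3 had 81.5 CPM, 2.94-fold (2.66 to 3.24) higher than the other D14 cells, where 2 of 25 genes were higher against 1.97% of all genes.

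FGF8, which patterns the early heart field, had 19.5, 8.86 and 0 CPM at D8, D14 and D21 over all kept cells. The 0 UMIs at D21 allow up to 0.0971 CPM, so that the level was at least 91.2-fold lower at D21 than at D14. At D14 the highest level was in unnamed cluster 16 of 62 cells, with 66.9 CPM (95% interval 50.9 to 86.3), 8.56-fold (6.39 to 11.3) higher than in the other D14 cells, where it was the only one of 27 genes higher, against 4.41% of all genes. Unnamed cluster 3 had 20.5 CPM, D14 CM-like cells 11.4 CPM and D14 endothelial-like cells 0 UMIs.

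FGF18, a ligand of FGFR3 that is best known from bone, was found mainly in CM-like cells at D14 and D21. It had 2.91, 21.6 and 13.4 CPM at D8, D14 and D21 over all kept cells and 7.01 CPM (5.28 to 9.12) at D8, 77.9 CPM (72.4 to 83.8) at D14 and 47.2 CPM (42.3 to 52.4) at D21 in CM-like cells. It was 11.1-fold (8.45 to 14.9) higher in CM-like cells at D14 than at D8, and the D21 level was 1.65-fold (1.45 to 1.88) lower than that of D14, short of the 2-fold set here. CM-like cells held 67.3% of the D14 and 83.3% of the D21 FGF18 UMIs, and the next highest named D21 group, the dividing cells, had 4.92 CPM.

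FGF9, known from the epicardium and endocardium as a factor that acts on cardiomyocytes, had 0.684, 2.19 and 6.08 CPM at D8, D14 and D21 over all kept cells. CM-like cells had no FGF9 UMI at D8, 4.04 CPM (95% interval 2.86 to 5.55) at D14 and 20.3 CPM (95% interval 17.2 to 23.8) at D21, 5.02-fold (3.49 to 7.37) higher. CM-like cells held 78.7% of its D21 UMIs. None of the 37 D21 endothelial-like cells had an FGF9 UMI, which allows up to 5.27 CPM in so small a group. Over all kept cells its order at D21 and D14 turned round with a mitochondrial limit of 5%, which left 895 D21 cells. FGF1 stayed low in CM-like cells, with 0.127, 0.319 and 3.98 CPM at D8, D14 and D21, and the D21 level was above that of D14 by 12.5-fold (3.86 to 63.9), from 29 against 3 UMIs.

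FGF7, a mesenchymal ligand of FGFR2, had 1.30, 7.78 and 20.9 CPM at D8, D14 and D21 over all kept cells. Its levels were 1.15, 4.58 and 36.5 CPM at D8, D14 and D21 in CM-like cells, 7.97-fold (5.76 to 11.3) higher at D21 than at D14, and 10.1 and 24.0 CPM in fibroblast-like cells of D14 and D21. In D21 CM-like cells, FGF7 was 82.3 CPM in the 50 cells of cluster 18 and 33.2 CPM in the 490 cells of cluster 6, so it was not held by cluster 18 alone. FGF7 has near-identical partial copies elsewhere in the genome, and its counts are uncertain for that reason.

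FGF23, a hormone of phosphate balance made mainly in bone, had 0.898, 11.3 and 2.01 CPM at D8, D14 and D21 over all kept cells. At D14 it was 25.9 CPM (95% interval 22.3 to 30.0) in fibroblast-like cells, which held 31.9% of that day's UMIs, and it was 8.53-fold (5.89 to 12.7) lower in D21 fibroblast-like cells. It had no UMI in D21 CM-like cells, at least 17.8-fold lower than at D14. The 36.9 CPM of D21 endothelial-like cells rested on 1 of 37 cells, which held 20 of the 21 UMIs.

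FGF2, a ligand without a classical signal peptide and a factor of pluripotent cells, had 3.42, 5.07 and 2.82 CPM at D8, D14 and D21 over all kept cells, all within 2-fold of each other. It was 12 CPM in ectoderm-like cells at D8 and 15.8 CPM at D14, which was 5.11-fold (3.66 to 7.10) and 3.38-fold (2.19 to 5.01) higher than in the other cells of those days, where 3 of 23 and 1 of 25 genes were higher, against 3.72% and 4.49% of all genes. At D14, 1 of the 78 ectoderm-like cells held 8 of the 28 FGF2 UMIs, and without it the level was 11.4 CPM. The FGF-2 added to the medium is protein and is not counted in these levels. FGF5, FGF14, FGF19 and FGF20 did not exceed 1.5 CPM over all kept cells of any day. FGF20 had 87% of its D14 UMIs in endoderm-like cells, at 4.11 CPM (95% interval 2.51 to 6.35), and 1 cell held 7 of their 20 UMIs.

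The intracellular FGF homologous factors FGF12 and FGF13 had most of their D21 UMIs in CM-like cells, while FGF11 was low at D21. FGF12, a partner of the cardiac sodium channel, had 1.92, 0.736 and 11.6 CPM at D8, D14 and D21 over all kept cells. CM-like cells went from 1 UMI at D14 to 274 UMIs at D21, from 0.106 to 37.6 CPM (95% interval 33.3 to 42.3), a ratio of 353-fold (62.8 to 13995). CM-like cells held 76.5% of its D21 UMIs, and both of their clusters had it, with 37.2 CPM in cluster 6 and 43.2 CPM in cluster 18.

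FGF13, also a regulator of sodium channels and a binder of microtubules, had 15.8, 19.2 and 26.8 CPM at D8, D14 and D21 over all kept cells, all within 2-fold. In CM-like cells alone it had 11.3 CPM (9.11 to 14.0) at D8, 32.9 CPM (29.3 to 36.8) at D14 and 82.7 CPM (76.2 to 89.6) at D21, 2.90-fold (2.28 to 3.71) higher at D14 than at D8 and 2.51-fold (2.19 to 2.89) higher at D21 than at D14. In endoderm-like cells it went the other way, with 19.8, 24.7 and 3.98 CPM at D8, D14 and D21, while D21 endothelial-like cells had 3.51 CPM. CM-like cells held 72.8% of its D21 UMIs.

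FGF11 had 14.2, 26.9 and 2.07 CPM at D8, D14 and D21 over all kept cells, 13-fold (10.1 to 17) lower at D21 than at D14. CM-like cells had 20.5, 39.7 and 3.70 CPM at D8, D14 and D21, fibroblast-like cells had 12.4 and 2.59 CPM at D14 and D21, and endoderm-like cells had 22.6 CPM at D14 and 0 UMIs at D21. In CM-like cells FGF11, FGF12 and FGF13, of the same subfamily, thus had their highest levels at D14, D21 and D21.

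Of the FGF receptors, FGFR1 was detected in all groups, while FGFR3 and FGFR4 were at their highest in D21 endoderm-like cells. FGFR1, the main FGF receptor of mesenchymal cells, had 126, 90.4 and 61.3 CPM at D8, D14 and D21 over all kept cells, and neither step reached 2-fold. Its D21 levels were 51.4 CPM in CM-like, 89.5 CPM in fibroblast-like, 84.3 CPM in endothelial-like and 10.4 CPM in endoderm-like cells, where it was 7.5-fold (5.98 to 9.53) lower than in the other D21 cells. In endoderm-like cells FGFR1 had 163, 45.7 and 10.4 CPM at D8, D14 and D21, with the change of markers at D21 given above.

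FGFR2, whose epithelial and mesenchymal splice forms bind different ligands and are not told apart by these counts, had 9.19, 13.5 and 9.13 CPM at D8, D14 and D21 over all kept cells. CM-like cells had 12.6, 26.6 and 8.23 CPM at D8, D14 and D21, 3.23-fold (2.43 to 4.36) lower at D21 than at D14. The D14 level was 2.11-fold (1.67 to 2.69) higher than that of D8, and with TMM factors it was within 2-fold. The D21 endothelial-like cells had 0 FGFR2 UMIs, which allows up to 5.27 CPM in so small a group.

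FGFR3 had 13.9, 16.6 and 11.4 CPM at D8, D14 and D21 over all kept cells, within 2-fold, but moved in opposite directions in the cell groups. In endoderm-like cells it was 11.8, 15.8 and 40.0 CPM at D8, D14 and D21, 2.52-fold (1.96 to 3.28) higher at D21 than at D14, where 2 of 23 genes were higher, against 11% of all genes. CM-like cells had 19.0, 13.7 and 1.92 CPM at D8, D14 and D21, 7.15-fold (4.11 to 13.4) lower at D21, and fibroblast-like cells had 8.11 and 2.14 CPM at D14 and D21. At D21, endoderm-like cells held 85.3% of the FGFR3 UMIs.

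FGFR4, the receptor through which FGF19 acts in the liver together with KLB, had 4.73, 1.35 and 18.3 CPM at D8, D14 and D21 over all kept cells. Its levels in endoderm-like cells were 16 CPM (13.1 to 19.4) at D8, 5.76 CPM (3.83 to 8.33) at D14 and 70.7 CPM (64.8 to 76.9) at D21, and these cells held 94.2% of the D21 UMIs. After each cell had been thinned to 4000 UMIs, 22.5% (69 of 307 cells, 95% interval 17.9 to 27.6%) of the D21 endoderm-like cells had an FGFR4 UMI, against 0.926% (5 of 540 cells, 95% interval 0.301 to 2.15%) of CM-like cells, where it served as background. The unthinned shares were 71.0% and 2.41%, for cells whose median depth was 21922 UMIs in the first group and 12778 in the second. KLB, the co-receptor, was 48.5 CPM in these endoderm-like cells and 0.823 CPM in CM-like cells, while FGF19 itself had 5 UMIs in the D21 library. Within the D21 CM-like cells, FGFR4 was 18.5 CPM in cluster 18, from 9 UMIs, and 0.588 CPM in cluster 6, from 4 UMIs.

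All 4 VEGF family ligands were lower at D21 than at D14, PGF by the largest fold. VEGFA, the ligand of FLT1 and KDR, had 72.0 CPM (69.6 to 74.5) at D8, 80.2 CPM (77.7 to 82.7) at D14 and 27.0 CPM (25.2 to 28.9) at D21 over all kept cells, 2.98-fold (2.76 to 3.21) lower at D21 than at D14. CM-like cells had 71.0, 138 and 33.1 CPM at D8, D14 and D21 and held 32.2% of the D14 UMIs. At D8, unnamed cluster 13 had 183 CPM (95% interval 169 to 197), 2.91-fold (2.67 to 3.17) higher than in the other D8 cells, and VEGFA was the only one of 24 genes higher there, against 2.82% of all genes. Endoderm-like cells had 130.4, 85.2 and 30.9 CPM at D8, D14 and D21.

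VEGFB, a ligand of FLT1 that does not bind KDR, had 17.8, 83.0 and 33.6 CPM at D8, D14 and D21 over all kept cells, 4.65-fold (4.32 to 5.02) higher at D14 than at D8 and 2.47-fold (2.31 to 2.64) lower at D21 than at D14. CM-like cells followed the same course, with 31.5, 127 and 45.8 CPM at D8, D14 and D21. VEGFC, the ligand of FLT4 in lymphatic vessels, did not pass 4.20 CPM in the sum of any day, and its highest group levels were 12.3 CPM (95% interval 4.94 to 25.3) in D21 endothelial-like cells, from 7 UMIs, and 9.67 CPM in D14 endoderm-like cells. With the TMM factors, and with all barcodes, VEGFC at D21 was within 2-fold of D14.

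PGF, placental growth factor, binds FLT1. It had 89.6 CPM (86.9 to 92.4) at D8, 64.8 CPM (62.6 to 67.1) at D14 and 6.34 CPM (5.49 to 7.30) at D21 over all kept cells, 10.2-fold (8.84 to 11.9) lower at D21 than at D14. The fall was not limited to a single group, as CM-like cells had 39.2, 27.8 and 1.65 CPM at D8, D14 and D21, fibroblast-like cells 106 and 9.20 CPM at D14 and D21, and dividing cells 141, 75.8 and 5.91 CPM at D8, D14 and D21. At D8 its highest level was in unnamed cluster 0, the largest cluster of that day (1078 cells), with 144 CPM, 2.31-fold (2.17 to 2.45) higher than in the other D8 cells, where 2 of 24 genes were higher, against 0.664% of all genes. PGF was among the leading genes of that cluster.

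FLT1, also called VEGFR1, had its highest level in endothelial-like cells on each day, and at D8 and D14 it was also found in CM-like cells and other groups. Before thinning, FLT1 was seen at D8 in 116 of 483 CM-like cells, 220 of 1078 cells of unnamed cluster 0 and 86 of 350 dividing cells. At D14 FLT1 was seen in 187 of 671 CM-like and 112 of 524 fibroblast-like cells. It had 302 CPM (265 to 342) at D8, 335 CPM (292 to 383) at D14 and 181 CPM (148 to 219) at D21 in endothelial-like cells and 16.9, 27.4 and 0.411 CPM at D8, D14 and D21 in CM-like cells, where it was 66.5-fold (22.5 to 325) lower at D21 than at D14, from 3 against 257 UMIs. After thinning, 76.1%, 67.9% and 56.8% of endothelial-like cells of D8, D14 and D21 had a FLT1 UMI, and 6.83% and 8.79% of CM-like cells of D8 and D14, beside 1.17%, 0.943% and 0.977% of endoderm-like cells as background. At D21 the share of CM-like cells was 0% (0 of 540 cells, 95% interval 0 to 0.681%). Without thinning, the endothelial-like shares were 95.7%, 86.8% and 81.1%, and those of endoderm-like cells 7.39%, 4.25% and 3.91%, with a median of 14682, 11280.0 and 13489 UMIs per endothelial-like cell and of 23570.0, 20696 and 21922 UMIs per endoderm-like cell. Endothelial markers summed to 92.0, 118 and 28.3 CPM in CM-like cells, with at most 1 of 8 over 10 CPM on each day, beside 2997 CPM in D21 endothelial-like cells. Their part in the FLT1 levels of CM-like cells was not tested.

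FLT4, or VEGFR3, had under 2 CPM over all kept cells of each day, and 16.3, 23.4 and 26.3 CPM at D8, D14 and D21 in endothelial-like cells. The D21 value came from 15 UMIs, with a 95% interval of 14.7 to 43.5 CPM, so that the 3 days cannot be ordered at this depth. No D21 endoderm-like cell had a FLT4 UMI, and D21 CM-like cells had 0.137 CPM.

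The neuropilins, co-receptors for VEGF and for class 3 semaphorins, were present in more groups than FLT1. NRP1 had 15.4 CPM (14.3 to 16.5) at D8, 66.4 CPM (64.2 to 68.7) at D14 and 69.6 CPM (66.7 to 72.7) at D21 over all kept cells, 4.32-fold (3.99 to 4.69) higher at D14 than at D8. Levels in CM-like cells were 20.003, 149 and 141 CPM at D8, D14 and D21, 7.45-fold (6.31 to 8.84) higher at D14 than at D8, and in endothelial-like cells 70.1, 119.9 and 156 CPM at D8, D14 and D21. After thinning, 7.66%, 42.8% and 38.7% of CM-like cells had an NRP1 UMI, against 7.0%, 7.08% and 7.17% of endoderm-like cells. At D8 the shares of both groups were close. NRP1 was spread over the D8 endoderm-like cells (140 UMIs in 80 of 257 cells), so they are not a background free of it. Without thinning the CM-like shares were 22.8%, 72.1% and 78.5%, and those of endoderm-like cells 31.1%, 30.2% and 29.3%, where the median depths of CM-like cells were 14460.0, 12841 and 12778 UMIs.

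NRP2 had 128, 116 and 60.5 CPM at D8, D14 and D21 over all kept cells and no step reached 2-fold. Levels in CM-like cells were 185, 102 and 122 CPM at D8, D14 and D21, and in endothelial-like cells 367, 169.7 and 253 CPM at D8, D14 and D21. In endoderm-like cells it was 179.6, 215 and 12.2 CPM at D8, D14 and D21, so at D21 NRP2 was 6.22-fold (5.04 to 7.76) lower in these cells than in the other D21 cells.

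PDGFB had its highest level of each day in endothelial-like cells, and at D21 PDGFD was highest in CM-like and fibroblast-like cells among the named groups. PDGFB, the ligand by which endothelium recruits pericytes, had 52.6 CPM (37.9 to 71.0) at D8, 40.5 CPM (26.4 to 59.3) at D14 and 52.7 CPM (35.6 to 75.2) at D21 in endothelial-like cells. These were 30.2-fold (20.3 to 44.4), 6.18-fold (3.98 to 9.22) and 23.9-fold (15.0 to 37.2) higher than in the other cells of D8, D14 and D21, where 8 of 25, 5 of 27 and 8 of 26 genes were higher, against 13.5%, 8.43% and 10.9% of all genes. At D21, 1 of the 37 cells held 11 of the 30 PDGFB UMIs. PDGFA, a ligand of PDGFRA, was 30.0, 48.3 and 22.8 CPM at D8, D14 and D21 in endothelial-like cells and 19.1 CPM in D21 endoderm-like cells, against 6.86 CPM in CM-like and 5.09 CPM in fibroblast-like cells of that day. Endoderm-like cells of D14 also had both, with 36.2 CPM of PDGFA and 22.2 CPM of PDGFB.

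PDGFD, a ligand of PDGFRB, was higher at each step over all kept cells, with 4.45 CPM (3.86 to 5.09) at D8, 15.7 CPM (14.6 to 16.9) at D14 and 43.1 CPM (40.9 to 45.5) at D21, 3.54-fold (3.03 to 4.14) and 2.74-fold (2.51 to 3.0) higher at D14 than at D8 and at D21 than at D14. CM-like cells had 2.80, 29.7 and 72.6 CPM at D8, D14 and D21 and fibroblast-like cells 16.2 CPM at D14 and 51.7 CPM at D21. At D8 its highest level was in endoderm-like cells, with 11.9 CPM. PDGFC, a ligand of PDGFRA, had 4.02, 14.2 and 11.3 CPM at D8, D14 and D21 over all kept cells, 3.52-fold (3.0 to 4.16) higher at D14 than at D8. Its D21 level was 17.4 CPM in fibroblast-like and 5.49 CPM in CM-like cells, and 0 UMIs in endothelial-like cells, which allows up to 5.27 CPM.

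PDGFRA and PDGFRB had their highest D8 levels in different groups, and at D21 most UMIs of both were in fibroblast-like cells. PDGFRA had 266 CPM (254 to 277) at D8, 39.6 CPM (35.7 to 43.8) at D14 and 4.39 CPM (3.0 to 6.20) at D21 in CM-like cells, 6.71-fold (6.01 to 7.51) lower at D14 than at D8 and 9.02-fold (6.28 to 13.4) lower at D21 than at D14. In fibroblast-like cells it was 13.8 CPM (95% interval 11.2 to 16.8) at D14 and 59.4 CPM (95% interval 55.0 to 64.1) at D21, 4.30-fold (3.47 to 5.38) higher, where 4 of 23 genes were higher, against 5.51% of all genes. The D14 fibroblast-like group depended on how it was chosen, since 524 cells were in it by cluster, 334 by marker share and 152 by both. Its main cluster met 4 of 8 fibroblast markers and held 520 cells as used here. The cluster so named held 1366 cells at a resolution of 0.4 and 297 at 1.2. The steps of PDGFRA and PDGFRB in fibroblast-like cells from D14 to D21 were not rerun with these groups. Fibroblast-like cells held 71.5% of the D21 PDGFRA UMIs, against 3.44% in CM-like cells, which had held 34.2% at D8. Unnamed clusters 0 and 13 had 148 and 173 CPM of PDGFRA at D8.

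After thinning, 59.4% (287 of 483 cells, 95% interval 54.9 to 63.8%) of CM-like cells had a PDGFRA UMI at D8, 15.8% (106 of 671 cells, 95% interval 13.1 to 18.8%) at D14 and 2.22% (12 of 540 cells, 95% interval 1.15 to 3.85%) at D21. Endoderm-like cells, as background, had 3.5%, 2.36% and 1.30%, so the D21 share of CM-like cells was near background, while 19.5% (161 of 825 cells, 95% interval 16.9 to 22.4%) of D21 fibroblast-like cells had one. Without thinning the CM-like shares were 91.3%, 34.3% and 4.63%, that of D21 fibroblast-like cells was 48%, at a median depth of 12690.0 UMIs, and those of endoderm-like cells were 17.1%, 5.66% and 4.23%.

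PDGFRB, a receptor of pericytes and fibroblasts, had 13.1 CPM (12.1 to 14.2) at D8, 24.1 CPM (22.8 to 25.5) at D14 and 71.0 CPM (68.1 to 74.1) at D21 over all kept cells, 2.94-fold (2.74 to 3.16) higher at D21 than at D14. With all barcodes in place of the kept cells, which was tried after seeing the data, PDGFRB was still higher at D21 but no longer reached 2-fold. In fibroblast-like cells PDGFRB was 70.2 CPM (95% interval 64.1 to 76.7) at D14 and 154 CPM (95% interval 147 to 161) at D21, 2.19-fold (1.98 to 2.43) higher, and D21 fibroblast-like cells held 78.6% of that day's UMIs. At D8, where no cluster was fibroblast-like, unnamed cluster 0 had 23.3 CPM and the dividing cells 22.0 CPM. Among the D21 CM-like cells, cluster 18 had 47.3 CPM from 23 UMIs and cluster 6 1.32 CPM, so most of the 4.39 CPM of CM-like cells came from the 50 cells of cluster 18.

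The thinned share of cells with a PDGFRB UMI was 18.7% (98 of 524 cells, 95% interval 15.5 to 22.3%) of D14 fibroblast-like cells and 39.9% (329 of 825 cells, 95% interval 36.5 to 43.3%) of those of D21, against 0.943% and 1.30% of endoderm-like cells. Without thinning these were 49.8% and 68.7%, against 4.25% and 5.86%, with a median of 12844 and 12690.0 UMIs per fibroblast-like cell. Of the 825 D21 fibroblast-like cells, 161 had a PDGFRA UMI and 329 a PDGFRB UMI after thinning, and 64 had both (7.76%). The product of both shares is 7.78%, which lies inside the 95% interval of the share with both, 6.03 to 9.80%. In D14 fibroblast-like cells, 11 of 524 had both (2.10%, 95% interval 1.05 to 3.73%), and the product of 0.999% lies below that interval.

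**Figure D2:**
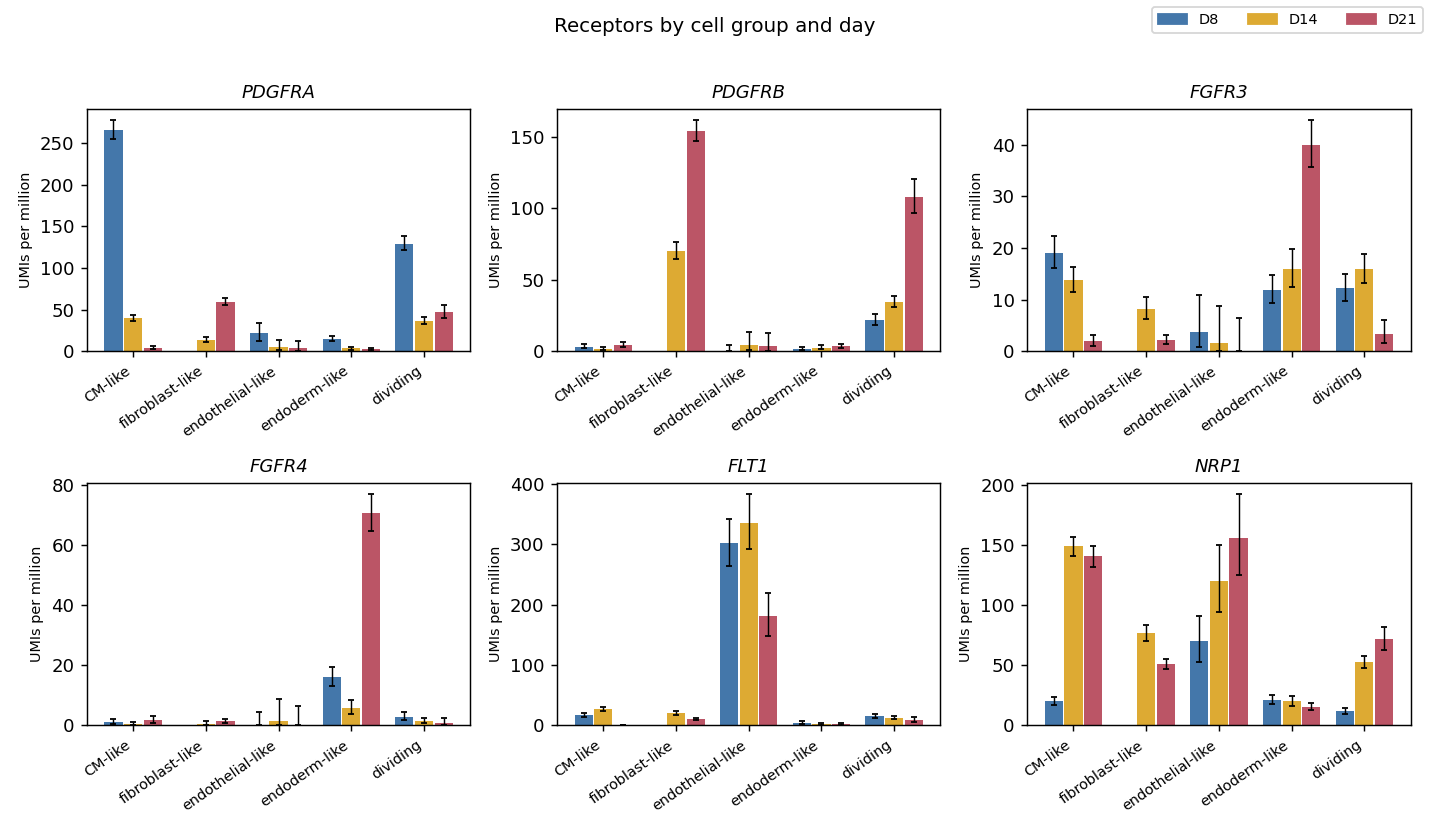
Level of 6 receptors in the cell groups of each day, in CPM. Bars are sums over the cells of a group and whiskers exact Poisson 95% intervals. For PDGFRA the CM-like bars go from 39.6 CPM at D14 to 4.39 CPM at D21, while for FGFR3 the D21 endoderm-like bar stands at 40.0 CPM.

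Within D21, where all groups share a library, each group was set against the other cells of that day. In CM-like cells, 10 of 27 genes were higher and 9 lower, against 11% and 18% of all genes. Those higher were FGF1, FGF7, FGF9, FGF10, FGF12, FGF13, FGF18, PDGFD, NRP1 and NRP2, and those lower included both PDGF receptors and FLT1. PDGFD was within 2-fold with TMM factors. Fibroblast-like cells had 3 of 25 higher and 8 lower, against 9.48% and 13.4% of all genes, and 6 were higher with a mitochondrial limit of 20%. PDGFRA was 4.41-fold (3.82 to 5.11), PDGFRB 6.46-fold (5.83 to 7.16) and PDGFC 2.21-fold (1.78 to 2.75) higher than in the other D21 cells.

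The D21 endothelial-like cells had 8 of 26 genes higher (NRP1, NRP2, FLT1, FLT4, VEGFC, PDGFA, PDGFB and FGF23) and 13 lower, against 10.9% and 21.1% of all genes. FLT1 was 33.5-fold (25.9 to 43.1) and FLT4 159.8-fold (55.2 to 562) higher than in the other D21 cells. For FGF9 and PGF, counted as lower, the interval of the ratio included 1, and with endothelial cells chosen by their marker share instead (37 cells by cluster, 175 by marker share) the counts were 4 higher and 6 lower. PDGFRA, PDGFRB, PDGFA and PGF then changed direction.

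Endoderm-like cells of D21 had 4 of 24 genes higher and 16 lower, against 10.9% and 29.5% of all genes. FGFR3 was 18-fold (13.3 to 24.6), FGFR4 50.03-fold (35.2 to 73.4), PDGFA 3.10-fold (2.45 to 3.94) and PDGFB 2.47-fold (1.62 to 3.76) higher than in the other D21 cells, and PDGFB changed direction with cells chosen by marker share. One of the 307 cells held 12 of the 43 PDGFB UMIs, and without it the ratio was 1.79 and PDGFB no longer passed the fold. The median log2 difference was -1.94 for the genes tested and -0.54 for all genes. With TMM factors, which shift this comparison by 0.49, FGF2 and VEGFB were no longer 2-fold lower.

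Over the cell groups, 21 of the 33 genes had a UMI in at least 10% of the thinned cells of at least one named group, and 9 did when 2 UMIs were asked for. The highest share was that of FLT1 in D8 endothelial-like cells, 76.1% (35 of 46 cells, 95% interval 61.2 to 87.4%), and the highest outside endothelial-like cells among named groups was that of PDGFRA in D8 CM-like cells, 59.4%. The other 12 of the 33 genes did not reach 10% in any named group.

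At D8 and D14 the groups were set against the other cells of their own day in the same way. D8 CM-like cells had 4 of 23 genes higher (PDGFRA, FGF10, FGF18 and VEGFB) and 5 lower, against 5.4% and 7.57% of all genes. Leaving the cell with the most UMIs of the gene out of the group was tried after seeing the data, for calls with at least 20 UMIs in the group. Calls from fewer UMIs, such as those of FLT4 in endothelial-like cells, were not tried. Of the 67 calls tried of a gene as higher in a group than in the other cells of its day, 10 ended. Those were VEGFB in D8 CM-like, FGFR3 in D8 ectoderm-like, PDGFA in D8 endothelial-like, NRP2 in D14 endoderm-like, FGF19 in D14 fibroblast-like, FGF7 in cluster 2, FGF12 and PDGFRA in cluster 17, PDGFB in D21 endoderm-like and FGF23 in D21 endothelial-like cells. D14 CM-like cells had 6 of 25 higher (FGF10, FGF18, VEGFA, NRP1, FGFR2 and PDGFD) and 5 lower, against 7.65% and 10%. FGF10 and FGF18 were thus higher in CM-like cells than in the other cells on each of the 3 days, while PDGFRA was higher there at D8 and lower at D21.

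D14 fibroblast-like cells had 3 of 26 genes higher (PDGFRB, FGF19 and FGF23) and 11 lower, PDGFRA among them, against 3.64% and 8.33% of all genes. Of the 27 FGF19 UMIs, 10 were in 1 of 524 cells, and the level without it was 2.43 CPM against 0.763 CPM in the other cells. Endothelial-like cells had 10 lower at D8 and 12 at D14, against 17.3% and 24.8%. The interval of the ratio included 1 for 2 of these at D8 (PDGFC and FGF18), for 3 at D14 (FGF2, PDGFC and FGF9) and for FGF7 among those higher at D8. FLT1, FLT4, PDGFA and PDGFB were among those higher on each day. The PDGFA call of D8 ended without 1 cell, and that of D21 changed direction with cells chosen by marker share. Endoderm-like cells had 3 of 24 higher and 7 lower at D8, against 5.15% and 6.81%, and 8 of 28 higher and 14 lower at D14, against 6.1% and 13.1%, with FGFR4 higher and PDGFRA and PDGFRB lower both times. Ectoderm-like cells had 10 lower at D8 and 13 at D14 (for FGF9 with an interval that included 1), against 10.1% and 17.8%.

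The dividing cells had 0 genes higher at any day, among 22, 26 and 24 tested, against 2.98%, 4.75% and 6.01% of all genes. FGF18, VEGFA and PDGFB were lower at D8 and D14, and FGF12, FGF18, FGFR3 and FGFR4 at D21, against 2.74%, 4.67% and 8.22%. Of the unnamed clusters, cluster 0 had 2 genes lower, cluster 13 had 1, cluster 3 had 1 and cluster 16 had 10 (for FGF9 and PDGFB with an interval that included 1), against 4.41%, 20.8%, 5.18% and 25.7% of all genes. Cluster 2 of D14 had 2 higher, FGF5 (2.84 CPM) and FGF7 (14.0 CPM), and 5 lower, against 1.43% and 6.99%. Cluster 17 of D21 had 3 higher, FGF9, FGF12 (25.2 CPM) and PDGFRA (59.9 CPM), and 5 lower, against 3.49% and 8.4%. For FGF23, PGF and PDGFB among those lower the interval included 1. The median doublet score of cluster 17 was 0.214, while those of the other clusters were 0.0242 to 0.0688, and its part in these levels was not tested.

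Between days, the remaining groups moved as follows. Endothelial-like cells had 1 of 14 genes higher (PDGFD) and 2 lower (NRP2 and PDGFRA) at D14 than at D8, against 4.22% and 7.59% of all genes, and 1 of 12 higher and 4 lower (VEGFA, VEGFB, PGF and PDGFA) at D21 than at D14, against 13.4% and 10.5%. Fibroblast-like cells had 8 lower at D21 than at D14, against 11.1%. Endoderm-like cells had 6 of 24 higher and 3 lower (PDGFRA, FGFR4 and FGFR1) at D14 than at D8, against 6.3% and 3.56%, and 13 lower at D21 than at D14, against 27.8%. Ectoderm-like cells had 3 of 21 higher and 7 lower (for PDGFRB with an interval that included 1) at D14 than at D8, against 8.1% and 9.06%. Dividing cells had 9 of 25 higher and 3 lower (PDGFRA, FGF10 and FGF8) at D14 than at D8, against 7.93% and 2.14%, and 3 of 25 higher (FGF12, PDGFRB and PDGFD) and 10 lower at D21 than at D14, against 4.8% and 11.3%. PDGFRA was lower at D14 than at D8 in every named group present on both days (CM-like, endothelial-like, endoderm-like, ectoderm-like and dividing cells). The levels at D8 and D14 were 21.3 and 4.67 CPM in endothelial-like, 15.1 and 3.29 CPM in endoderm-like, 6.41 and 1.69 CPM in ectoderm-like and 129 and 36.8 CPM in dividing cells. Those of the first 3 groups at D14 came from 3, 16 and 3 UMIs. At D8, 1 cell held 21 of the 100 PDGFRA UMIs of endoderm-like cells, and 1 cell held 9 of the 33 of ectoderm-like cells. Endoderm-like cells served above as background for PDGFRA.

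Other genes of these pathways were counted from a fixed list of 34, of which 32 were in the table. These include KDR, the main signalling receptor of VEGFA, the Sprouty and Spred inhibitors, and the FGF response genes DUSP6, ETV4 and ETV5, which encode a phosphatase of ERK and transcription factors. Over all kept cells, 4 of 25 were higher and 2 lower at D14 than at D8, and 3 of 26 were higher (KDR, KLB and FLRT2) and 7 lower at D21 than at D14. In CM-like cells, 3 of 22 were higher and 2 lower at D14 than at D8. At D21, 1 of 22 was higher than at D14 and 11 were lower, among them SPRY1, SPRY2, SPRY4, SPRED1, DUSP6, ETV4 and ETV5. The background shares of these comparisons are those given above.

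In CM-like cells DUSP6 had 178, 88.6 and 21.8 CPM at D8, D14 and D21, ETV5 had 47.8, 72.6 and 7.68 CPM at D8, D14 and D21, SPRY4 had 14.5, 29.3 and 1.92 CPM at D8, D14 and D21 and SPRY2 had 36.8, 79.1 and 14.4 CPM at D8, D14 and D21. DUSP6 was thus lower at each step, while the others had their highest level at D14. The medium held added FGF-2 at D8 and D14 and not at D21, and its part in these levels was not tested.

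KDR had 25.8, 13.4 and 39.8 CPM at D8, D14 and D21 over all kept cells and 441, 260.0 and 446 CPM at D8, D14 and D21 in endothelial-like cells. In fibroblast-like cells it went from 13.5 CPM at D14 to 67.3 CPM at D21, unlike FLT1, which had 20.9 and 10.1 CPM there. Endothelial markers in D21 fibroblast-like cells summed to 295 CPM, with 1 of 8 over 10 CPM and none at 0, and their part in the KDR level was not tested. Of the list genes at D21, 12 of 24 were higher in fibroblast-like and 6 of 24 in endothelial-like cells. CM-like cells had 4 of 25 higher and endoderm-like cells 2 of 25. The shares of all genes higher were 9.48%, 10.9%, 11% and 10.9% in this order. In the same order, 3, 15, 14 and 17 list genes were lower, against 13.4%, 21.1%, 18% and 29.5% of all genes. SPRY1, an inhibitor of receptor tyrosine kinase signals, was 263 CPM in D21 fibroblast-like cells and 16.5 CPM in CM-like cells.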

How the data were processed

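Droplet single-cell 3′ RNA libraries were made from dissociated H7 CCOs at D8, D14 and D21, 1 library per day. The authors deposited a table of raw UMI counts per gene and barcode, before any filter on cells, and the values were whole numbers with no normalization. The submitters' processing notes name Cell Ranger, Seurat 3.2.1 and the build hg19. Each column name carries its day.

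The filter asked for over 2000 but below 7500 detected genes and less than 10% of UMIs from mitochondrial genes. Clustering used Seurat 5.3.0 in R 4.3.3 (2000 variable genes, 20 principal components, resolution 0.8, no integration), with the 29 variable genes of the families and pathways described here left out. Naming required 3 markers of a class to exceed the remaining cells of the day by 2-fold with the runner-up class at least 2 markers behind, thresholds that were set after seeing the data. Scrublet called 1, 1 and 7 cells as doublets (0.0376%, 0.0279% and 0.360%), too few to have worked, so doublets were not removed.

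UMIs were summed per library and group and given as CPM, with exact Poisson intervals for levels, exact binomial intervals for ratios and Clopper-Pearson intervals for shares. The fold rule adds 1 CPM to both levels, whereas the ratios printed are plain CPM ratios. A limit for 0 UMIs is that of 3 UMIs. With 1 library per day no test was run. The scripts were tested on simulated data. All 40 genes are accounted for, and levels are given for those with at least 50 UMIs. The genes, the marker lists and the pathway list were chosen with earlier results of these data known. Alternatives covered the filters, the clustering, the choice of cells, the thresholds and the scaling (edgeR 4.0.16 for TMM, DESeq2 1.42.0 for median-of-ratios factors). Promoter windows came from RefSeq in GRCh38.p14, and no hg19 coordinates are given.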

Additional observations from a re-analysis of the deposited data

Results flagged for a closer look

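Some genes moved past 2-fold in opposite directions in 2 cell groups between D14 and D21, on the scale of log2(CPM + 1). With 1 library per day, none of these differences between groups was tested. FGFR3 was higher at D21 by 1.28 in endoderm-like cells and lower in CM-like (-2.33), fibroblast-like (-1.54) and dividing cells (-1.98). The endoderm-like cells of D14 and D21 were named by different markers.

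PDGFRA was higher by 2.03 in fibroblast-like cells and lower in CM-like cells (-2.91). FGF13 was higher by 1.30 in CM-like cells and lower in endoderm-like cells (-2.37). FGF23 was higher by 2.39 in endothelial-like cells and lower in CM-like (-3.06), fibroblast-like (-2.74) and dividing cells (-2.11), but 20 of its 21 UMIs in the D21 endothelial-like cells were in 1 cell.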

How the results depend on the processing

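No paired analysis was possible because each day has 1 library. Alternatives were run for the steps between days over all kept cells and in CM-like cells. They were also run for D21 CM-like, fibroblast-like, endothelial-like and endoderm-like cells against the other D21 cells. All other comparisons were not rerun under these settings, among them the steps of FGFR3 in endoderm-like and PDGFRA in fibroblast-like cells. Over the alternatives run, 1963 of 1969 gene values kept their direction and 1843 stayed past the fold, but some settings could not change this. Other folds, other filters on a gene's UMIs and CPM, and 0.5 CPM added (125 values each) could not turn a direction. A fold of 1.5, no such filter and 0.5 CPM added could also not end a call. With cells chosen by marker share, 95 of 100 values kept their direction and 83 stayed past the fold. At a mitochondrial limit of 5%, 56 of 57 kept it and 51 stayed past the fold. With a fold of 1.5 in place of 2, the count of genes lower at D21 than at D14 over all kept cells was 14, from 8, that of genes lower at D14 than at D8 in CM-like cells was 4, from 1, and that of genes higher in D21 fibroblast-like cells was 7, from 3. With a fold of 3, the count lower at D14 than at D8 over all kept cells was 1, from 3, the count higher at D21 than at D14 was 2, from 6, the count lower was 5, from 8, and the counts higher in D21 CM-like and endoderm-like cells were 5, from 10, and 2, from 4. With a mitochondrial limit of 20%, the count higher in D21 fibroblast-like cells was 6, from 3. With cells chosen by marker share, the count higher in D21 endothelial-like cells was 4, from 8, and the count lower 6, from 13. Asking for 2 UMIs per cell left 9, from 21, genes at a share of 10%. The cause was not tested for the mitochondrial limit or the choice by marker share.

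The log2 differences that reversed were FGF9 at D21 against D14 over all kept cells with a mitochondrial limit of 5% (-0.35), and, with cells chosen by marker share, PDGFRA (0.56), PDGFRB (0.50), PDGFA (-0.37) and PGF (0.081) in D21 endothelial-like cells and PDGFB (-0.029) in D21 endoderm-like cells. The TMM factors shift the log2 differences by 0.26 at D21 against D14 over all kept cells and by 0.49 in D21 endoderm-like cells, and between -0.13 and 0.17 elsewhere. They ended the calls of VEGFC at D21 against D14, FGFR2 at D14 against D8 in CM-like cells, PDGFD in D21 CM-like cells, and FGF2 and VEGFB in D21 endoderm-like cells. Using all barcodes, leaving out cluster 18, or leaving out the cell with the most UMIs, was chosen after seeing the data. At a limit of 5%, 895 D21 cells were left, but no cluster with 20 of them met the naming rule for CM-like, fibroblast-like or endoderm-like cells, so these comparisons had no value. The 37 D21 endothelial-like cells limit what can be said of genes at low levels there.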

Other observations

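Of the D21 barcodes, 47.8% were at or over the limit on mitochondrial RNA. With a limit of 20%, the D21 CM-like cells held 1084 cells at 10% to 20% and 388 under 10%. Of the 40 genes, 21 had enough UMIs to be compared, and 0 of these passed 2-fold between them, against 0.213% of all genes higher and 0.17% lower in the cells over 10%. FGF12 was 38.7 CPM over the limit and 40.7 CPM under it, FGF13 80.8 and 85.2 CPM, and NRP2 114 and 136 CPM. FGF18 was lower over the limit, with 34.0 and 54.3 CPM (ratio 0.627, 95% interval 0.541 to 0.727), and VEGFA was higher, with 39.5 and 27.1 CPM (ratio 1.46, 1.21 to 1.76).

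Unnamed cluster 17 of D21 had 58 cells, and its FGF9 level was 13.9 CPM against 20.3 CPM in CM-like cells of that day.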
